A study of Homo sapiens with 6 samples.

Results

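The genes described are 10 members of the Hippo pathway and its YAP/TEAD output, examined for open chromatin in Nthy-ORI cells, a human line immortalised from normal thyroid follicular epithelium. They comprise the coactivator genes YAP1 and WWTR1 (the latter encodes TAZ), the 4 DNA-binding partner genes TEAD1, TEAD2, TEAD3 and TEAD4, the secreted-protein target genes CCN1 and CCN2, and the feedback genes AMOTL2 and LATS2. They were taken by name from 19974 protein-coding genes on chromosomes 1 to 22 and X (RefSeq, GRCh38). A peak belonged to a member when its position lay within 1 kb of a gene boundary, inside the gene, or within 100 kb outside it. No peak counted for more than 1 member. Of the 7103 peaks of the vehicle list 4 belonged to members, of the 12385 peaks at 6 h of T3 11 did, and of the 60661 peaks at 24 h 112 did.

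ATAC-seq, which cuts and tags accessible DNA with the Tn5 transposase, was used to map open chromatin. All cells first spent 24 h in phenol-red-free medium with charcoal-stripped serum. They then received NaOH vehicle (2 samples, labelled 6 h), 10 nM T3, the active thyroid hormone, for 6 h (2 samples), or 10 nM T3 for 24 h (2 samples). The cells are 1 line, and the labels name no separate culture for either sample. The title of the series names TR-beta, a thyroid hormone receptor, and whether the cells carry an added copy of it could not be told from the labels. The vehicle samples stand at the earlier time, and for the 24 h group hormone and time cannot be told apart.

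In the Hippo pathway a kinase cascade ending in LATS1 and LATS2 phosphorylates YAP and TAZ and keeps them out of the nucleus. Unphosphorylated YAP and TAZ enter the nucleus and bind TEAD proteins, which recognise the sequence GGAATG, at enhancers and promoters of genes such as CCN1 and CCN2. AMOTL2, which holds YAP at junctions and the cytoskeleton, and LATS2 are targets that restrain YAP in turn. In thyroid cells TAZ is also known as a coactivator of the lineage factors PAX8 and NKX2-1.

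Promoter sequences of 7 members were in the RefSeq table (GRCh38.p14); CCN1, TEAD1 and TEAD4 were not. The table gives 300-base windows, from 250 bases before to 50 after an annotated transcript start. The windows that held GGAATG on either strand are shown because each match lay inside a peak of the 24 h list. Capitals mark GGAATG or its reverse complement, and each sequence reads 5′ to 3′ on the gene's strand. The CCN2 sequence is chr6:131951373-131951622 (minus strand), that of YAP1 chr11:102110197-102110446 (plus strand), and that of AMOTL2 chr3:134374448-134374697 (minus strand, before the inner of 2 annotated starts). LATS2 is represented by 30 bases, chr13:21061560-21061589 (minus strand), because its match begins at base 10 after the start.
CCN2: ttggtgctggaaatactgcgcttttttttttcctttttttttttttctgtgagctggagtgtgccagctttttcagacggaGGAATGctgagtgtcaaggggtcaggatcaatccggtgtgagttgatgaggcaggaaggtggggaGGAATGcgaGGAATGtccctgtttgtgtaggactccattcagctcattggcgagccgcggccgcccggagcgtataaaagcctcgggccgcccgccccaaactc
YAP1: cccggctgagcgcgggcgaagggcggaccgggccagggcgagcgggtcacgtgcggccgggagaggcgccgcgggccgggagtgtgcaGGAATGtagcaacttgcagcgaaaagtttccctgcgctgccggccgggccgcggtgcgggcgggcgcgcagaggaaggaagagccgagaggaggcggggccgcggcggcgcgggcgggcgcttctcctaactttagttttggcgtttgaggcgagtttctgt
AMOTL2: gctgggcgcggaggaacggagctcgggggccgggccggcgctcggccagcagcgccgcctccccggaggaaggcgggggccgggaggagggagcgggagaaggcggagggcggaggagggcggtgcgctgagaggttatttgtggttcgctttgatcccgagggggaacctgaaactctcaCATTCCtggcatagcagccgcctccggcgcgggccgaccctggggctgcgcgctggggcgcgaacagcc
LATS2: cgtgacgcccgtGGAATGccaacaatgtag
The CCN2 sequence held 3 matches, beginning 169, 104 and 95 bases before the start, and YAP1 and AMOTL2 held 1 each, 162 and 69 bases before it. GGAATG occurred in 4 of the 10 windows of the members and in 14% of 34961 windows of all genes. Matches numbered 3 or more in 0.123% of those windows. Windows overlapped by a 24 h peak held GGAATG in 11.4% of cases and the others in 16.2%, so over all genes open promoters did not hold it more often. A match is a string of letters and shows no binding.

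The windows of WWTR1, TEAD2 and TEAD3 held no GGAATG. The inner WWTR1 start carried AGGTCA, the element recognised by thyroid hormone receptors and other nuclear receptors, 85 bases before the start and inside a 24 h peak. These 30 bases are chr3:149658093-149658122 (minus strand), with AGGTCA in capitals.
WWTR1: ctagggactaggAGGTCAtacataattcaa
AGGTCA occurred in 13.8% of all windows. The direct repeat of that element with a spacer of 4 bases occurred in 0.02% of all windows and in none of the members. The AP-1 site TGANTCA (7.68% of all windows), the cyclic AMP response element TGACGTCA (1.85%) and the CArG box of SRF (1.3%) were likewise found in none of the 10 windows. All motifs were searched on both strands.

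Peaks found in both samples of a group had been merged into 1 list, so there were 3 lists. A peak carries a signal for each sample, a summed signal, and an irreproducible discovery rate (IDR). The IDR is low when a peak ranks consistently high in both samples. The lists differed in quality before any member was looked at. Replicate summits lay a median of 180 bp apart in vehicle, 222 bp at 6 h and 46 bp at 24 h, and the replicate signals had a Spearman correlation of 0.05, -0.28 and 0.69 across peaks. Each list holds only peaks selected on both samples, so these correlations do not measure the agreement of unselected regions. The 24 h list was also the longest. No read counts are in the lists, so depth is unknown and a missing peak does not show closed chromatin. With 1 list per group there is no test between conditions, and signals are ranked only within a list. Percentiles of a peak in lists of different length, given side by side below, show no change. Of the follicular cell markers, PAX8, NKX2-1, FOXE1, HHEX and TSHR had a gene-end peak at 24 h (a peak position within 1 kb of either gene boundary), while TG and SLC5A5 had none. Such peaks were not particular to follicular markers, since 60.8% of all protein-coding genes had one. They were also present at 3 of 4 epithelial markers (not CDH1), at 3 of 4 mesenchymal markers (VIM, COL1A2 and PDGFRB), at 1 of 3 endothelial markers (KDR) and at 1 of 3 leukocyte markers (CD3E).

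Open chromatin at the boundaries of these genes appeared in the 24 h list alone. At 24 h, 7 of the 10 members had a gene-end peak, against 60.8% of all protein-coding genes. In vehicle 0 of 10 did (1.34% of all genes), and at 6 h 0 of 10 did (10.8% of all genes). The members with gene-end peaks at 24 h were YAP1, TEAD1, TEAD4, CCN1, CCN2, AMOTL2 and LATS2. Their share was near that of all genes, so it is no result about the pathway. No member had a gene-end peak in vehicle, so all 7 had one at 24 h and none in vehicle (59.7% of all genes). At 6 h 0 did (10.3%). On annotated start windows, 5 of the 7 members in the promoter table had a peak at 24 h (63.0% of all genes in it), namely YAP1, WWTR1, CCN2, AMOTL2 and LATS2. In vehicle 0 did (1.22% of all genes) and at 6 h 0 did (11.5%). Peaks between the gene boundaries occurred in 1 member in vehicle (YAP1; 7.59% of all genes), 1 at 6 h (WWTR1; 17.5%) and 8 at 24 h (56.2%). A peak within 100 kb was listed for 4 members in vehicle (33.1% of all genes), 8 at 6 h (66.8%) and all 10 at 24 h (97.6%).

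**Figure D1:**
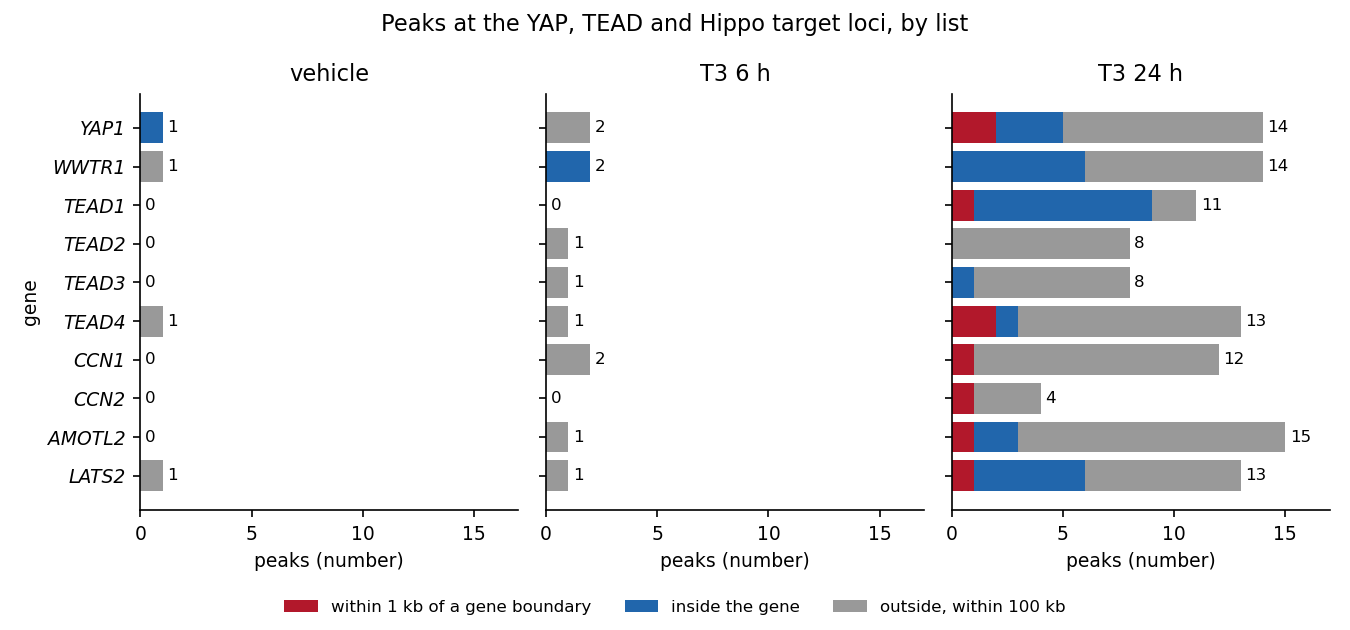
Number of peaks per gene in the vehicle, T3 6 h and T3 24 h lists, as stacked bars by position relative to the gene, with the total printed beside each bar. Vehicle and 6 h hold 0 to 2 peaks a gene, all of them away from gene boundaries, and 24 h holds 4 to 15.

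The list length bears directly on these counts. With all lists limited to their 7103 strongest peaks, 2 members, CCN2 and LATS2, kept a gene-end peak at 24 h (16.6% of all genes did), and the locus peaks numbered 4 in vehicle, 7 at 6 h and 18 at 24 h. In the same lists ranked by a single replicate column, the member with a gene-end peak was CCN2 by the first and LATS2 by the second.

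At the coactivator gene YAP1 (chr11:102110447-102233424, 123.0 kb), 2 adjoining peaks at 24 h flanked the start. The peak at chr11:102109906-102110649 lay over the start, with signals of 8.81 and 8.42 in the 2 samples and replicate summits 10 bp apart. It also overlapped a start window of the divergent transcript YAP1-DT. The second, at chr11:102110821-102112272, had signals of 8.39 and 9.02, and its position lay 887 bp inside the gene. Both samples thus gave nearly equal signals, and the summed signals of 17.2 and 17.4 stood at percentiles 72.4 and 73.1 of the list, or 50.5 and 51.4 among all 24 h gene-end peaks. YAP1 therefore had gene-end peaks of middling strength for that class.

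The rest of the YAP1 locus was open mainly beyond the higher-coordinate end of the gene, which is its 3′ side. Of 14 peaks at 24 h, 3 lay inside the gene, 7 beyond that end and 2 before the start. The nearest gene end was that of YAP1 for 9 of the 14. Among the rest, those beyond the 3′ end lay nearest to BIRC3. The strongest of all 112 locus peaks, with signals of 15.1 and 21.3 and at percentile 99.1, lay 99.2 kb before the start and so just within the 100 kb limit. Its nearest gene end was that of CEP126, 10211 bp away, so it cannot be assigned to YAP1. Beyond the 3′ end the peak at chr11:102256241-102256588, 22973 bp from the gene, had signals of 12.1 and 10.9. In vehicle YAP1 had 1 peak, at chr11:102127009-102127990, 16.9 kb inside the gene, with signals of 4.64 and 3.94. It ranked at percentile 7.26 of the vehicle list, had summits 322 bp apart and was shared with neither T3 list. (Peaks are called shared when they overlap by at least 50% of the shorter one.) Of the 2 peaks at 6 h, the one shared with 24 h overlapped a start window of BIRC3, an inhibitor-of-apoptosis gene 84.0 kb away.

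WWTR1 (chr3:149517235-149724788, 207.6 kb, minus strand), the TAZ gene, lacked a gene-end peak in all 3 lists. Its strongest peak inside the gene at 24 h lay on the inner annotated start, at chr3:149656806-149659072. This peak was 2267 bp wide, with signals of 11.3 and 9.15, at percentile 81.7. Its replicate summits lay 765 bp apart, so the 2 samples did not place the maximum alike. The peak also overlapped a start window of the antisense transcript WWTR1-AS1. The outer annotated start, at base 149703273, had no overlapping peak.

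Inside WWTR1, 5 further peaks at 24 h lay 59.2 to 86.4 kb from the lower-coordinate boundary, with summed signals of 9.74 to 18.15. The strongest of them, at chr3:149575533-149576506 with signals of 6.76 and 11.4, was shared with the 6 h list, where the 2 samples gave 5.23 and 5.37. At 6 h it stood at percentile 60.5 and at 24 h at 75.4, and the replicate summits lay 568 bp apart at 6 h and 7 bp at 24 h. The vehicle list held 1 peak near WWTR1, 6.7 kb beyond the gene, with signals of 5.36 and 7.60. At percentile 83.7 it was the strongest of the 4 vehicle peaks, but neither T3 list shared it.

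The TEAD genes encode the DNA-binding partners of YAP and TAZ, and their loci differed among themselves. TEAD1 and TEAD4 had a 24 h peak at the lower-coordinate gene boundary, while TEAD2 and TEAD3 had none at either boundary. In TEAD1 (chr11:12674421-12944737, 270.3 kb) the boundary peak lay at chr11:12673898-12674705 with its position 10 bp from the boundary. The 2 samples gave 6.36 and 12.9, so the second sample was higher by a wide margin, and the summed signal stood at percentile 78.7. A further 8 peaks were spread through the gene body, led by one 72.4 kb inside with signals of 9.87 and 13.1, at percentile 87.1. The vehicle and 6 h lists held no peak within 100 kb of TEAD1. Per length, TEAD1 had 2.34 peaks per 100 kb at 24 h, and 68.4% of all protein-coding genes had at least that density.

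TEAD4 (chr12:2959397-3040676, 81.3 kb) had 2 gene-end peaks at 24 h. The stronger, at chr12:2959295-2960907, gave 4.95 and 11.4 in the 2 samples and stood at percentile 69.3. The weaker, at chr12:2958401-2959010, gave 4.06 and 4.45 and stood at percentile 8.86, near the bottom of the list. Its other 24 h peaks were also mostly weak: the median percentile over 13 peaks was 31.8, the lowest of the 10 members. TEAD4 was the member with a vehicle peak shared at 24 h, 20.7 kb beyond the gene. That peak had vehicle signals of 5.76 and 4.06 (percentile 46.9 of vehicle) and stood at percentile 5.7 of the 24 h list. The 6 h peak of TEAD4, 95.5 kb away in TSPAN9, showed the widest disagreement of the early peaks, with 3.53 in one sample and 10.3 in the other and summits 889 bp apart.

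TEAD2 (chr19:49340595-49362416, 21.8 kb, minus strand) lies in a gene-dense stretch with 9 other protein-coding genes within 100 kb. A peak present at 6 h and 24 h lay 1.3 kb outside its start, just past the 1 kb limit, and over a start window of the neighbouring gene DKKL1. At 6 h its signals were 4.41 and 4.59 (percentile 12.1) and at 24 h 12.15 and 13.7 (percentile 91.5), at chr19:49363249-49364075 with both replicate summits at the same base. All 8 peaks of the TEAD2 window at 24 h lay on the same side of the gene, beyond its start, and the gene body held none.

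TEAD3 (chr6:35473597-35497079, 23.5 kb, minus strand) had 1 peak inside the gene at 24 h, 11.5 kb from its start, at chr6:35484871-35485988. The 2 samples gave 7.06 and 6.32, at percentile 55.5. The other 7 peaks in its window lay outside. Of these, 2 overlapped start windows of FANCE, a DNA repair gene, and RPL10A, a ribosomal protein gene. The 6 h peak, 82.1 kb away in PPARD, was shared with 24 h. It was the early peak whose replicate summits agreed best, 17 bp apart, with signals of 6.20 and 5.23. At 24 h the summits of its counterpart lay 156 bp apart.

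**Figure D2:**
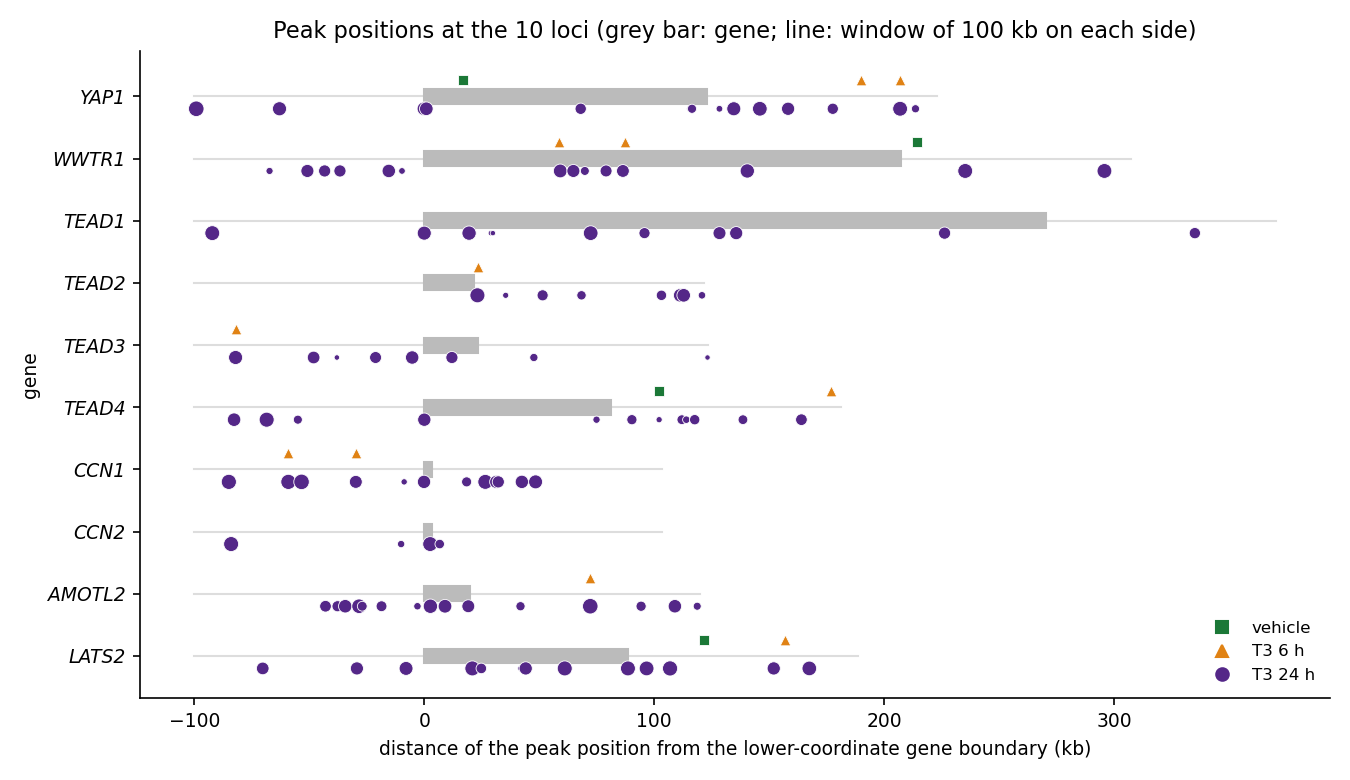
Peak positions at the 10 loci, as distance in kb from the lower-coordinate gene boundary. Grey bars are genes, squares vehicle, triangles T3 6 h and circles T3 24 h; circle size grows with the percentile of the peak in the 24 h list. CCN1 and AMOTL2 have 24 h peaks on both sides of a short gene, and those of TEAD2 lie on one side.

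CCN1 (chr1:85580761-85583950, 3.2 kb), which encodes a matricellular protein formerly called CYR61, combined a moderate gene-end peak with strong distal ones at 24 h. The gene-end peak at chr1:85580474-85580988 gave 8.04 and 8.39, with its position 104 bp outside the lower-coordinate boundary, and stood at percentile 69.6. Distal peaks lay on both sides, 5 below and 6 above the gene. The strongest, at chr1:85527136-85527522 and 53.4 kb from CCN1, gave 16.3 and 18.1, at percentile 98.5. The next, at chr1:85521348-85521817 (13.8 and 13.7) and chr1:85495489-85495906 (10.2 and 16.8), stood at 93.5 and 93.1. All 5 of the lower-side peaks lay within DDAH1, a gene with a boundary next to CCN1, so they cannot be assigned to 1 of the 2 genes. On the other side the peak at chr1:85607011-85607870, 23.4 kb from the gene, gave 11.6 and 13.3. In the 12 CCN1 peaks at 24 h the replicate summits lay at most 82 bp apart.

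CCN1 also had 2 distal peaks at 6 h, both shared with 24 h, and with an IDR of at most 0.01 neither was kept at 6 h. The one 59.3 kb below the gene gave 5.38 and 4.13 at 6 h (percentile 30.5) and is the 93.5 percentile peak of the 24 h list. The other, 29.7 kb below, gave 4.27 and 5.67 (percentile 44.3) and stood at percentile 64.8 at 24 h. Their 6 h summits lay 418 and 210 bp apart, against 5 and 63 bp at 24 h. CCN1 had 5.91 peaks per 100 kb of its window at 24 h, where the median over all protein-coding genes was 3.34 and 12.3% of genes had at least that density.

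CCN2 (chr6:131948176-131951372, 3.2 kb, minus strand), formerly called CTGF, had the sparsest locus, with 4 peaks at 24 h and none in the other lists. Its gene-end peak at chr6:131949734-131951572, which holds the 3 GGAATG matches printed above, gave 13.7 and 10.6 and stood at percentile 89.2, or 77.9 among gene-end peaks. The replicate summits of this peak lay 1484 bp apart, the widest of the 112: relative to the start, negative inside the gene, one sample had its maximum at -1380 bp and the other at 104 bp. The 24 h samples therefore shared an open stretch over the start region but no common maximum, and with summits limited to 100 bp apart CCN2 lost this peak. The strongest distal peak, 84.0 kb away inside ENPP1, gave 10.7 and 14.8. At 1.97 peaks per 100 kb CCN2 was below the median of all genes.

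AMOTL2 (chr3:134355345-134375417, 20.1 kb, minus strand) had the most locus peaks at 24 h, 15, although no other protein-coding gene lay within 100 kb. Its 6.82 peaks per 100 kb were reached by 5.84% of all protein-coding genes. The gene-end peak at chr3:134374155-134375709 covered both annotated starts and gave 6.63 and 8.56, at percentile 64.5. Inside the gene, peaks 2.7 and 9.0 kb from the lower-coordinate boundary gave 9.52 and 11.2, and 7.66 and 10.1. The peaks within the gene were thus stronger than the one at its start. The strongest peak of the locus, at chr3:134426874-134427829 and 52.1 kb before the outer start, gave 16.1 and 18.6, at percentile 98.6. It was the sole AMOTL2 peak in the 6 h list too, where the samples gave 4.17 and 6.95 (percentile 70.3). The summits lay 589 bp apart at 6 h and 3 bp at 24 h.

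LATS2 (chr13:20973036-21061586, 88.6 kb, minus strand), the kinase gene that closes the feedback on YAP, had the highest median strength. Its 13 peaks at 24 h had a median percentile of 76.7, and 4 of them exceeded percentile 90. The start peak at chr13:21061202-21061791 gave 9.87 and 14.95, with its position 34 bp from the start and summits 6 bp apart. It stood at percentile 90.1, and at 79.4 among gene-end peaks. Peaks 20.9 and 27.5 kb inside from the nearer boundary gave 12.1 and 13.4, and 11.9 and 13.6. Before the start the peak at chr13:21079771-21080263, 18.4 kb away, gave 11.7 and 15.65. Vehicle and 6 h held 1 peak each, 32.9 and 68.5 kb before the start, with signals of 5.26 and 3.61 in vehicle and 4.74 and 5.18 at 6 h. Both were absent from the 24 h list.

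**Figure D3:**
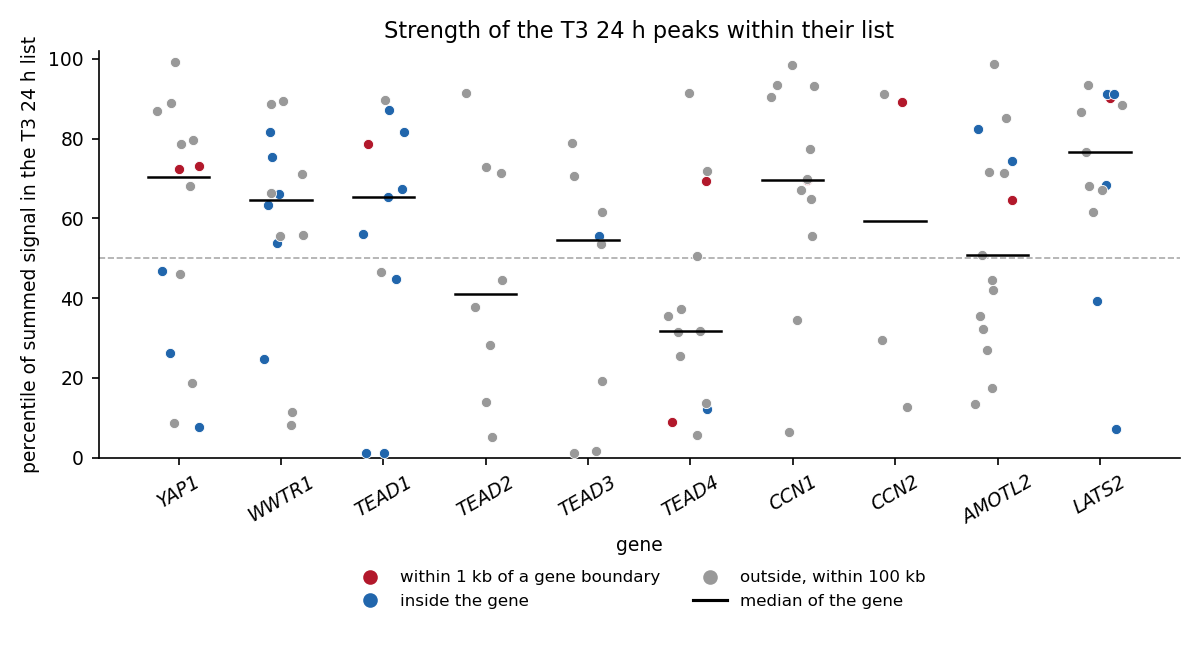
Percentile of the summed signal within the T3 24 h list for each of the 112 peaks, by gene, coloured by position relative to the gene. Black lines are medians, from 31.8 at TEAD4 to 76.7 at LATS2, and the dashed line is percentile 50, the middle of the list.

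Over all 112 peaks at 24 h the median percentile was 64.7, above the middle of the list, and the classes of position differed in this. The 25 peaks at an end of any protein-coding gene had a median percentile of 71.8, against 72.2 for all 11541 such peaks in the list. The 45 peaks inside genes had a median of 56.2 against 45.5 for 23335, and the 42 between genes 48.4 against 44.4 for 25423. Over all 112, 13 exceeded percentile 90, and 10% of the whole list does so by definition. In peak density 8 of the 10 members lay above the median of all genes, and AMOTL2 and CCN1 also above the upper quartile of 4.85 peaks per 100 kb. The window limit was no natural break: between 90 and 110 kb from the members the 24 h list held 7 peaks just inside the limit, at percentiles 1.24 to 99.1. It held 2 just outside, near TEAD3 and AMOTL2, at 86.1 and 88.4.

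**Figure D4:**
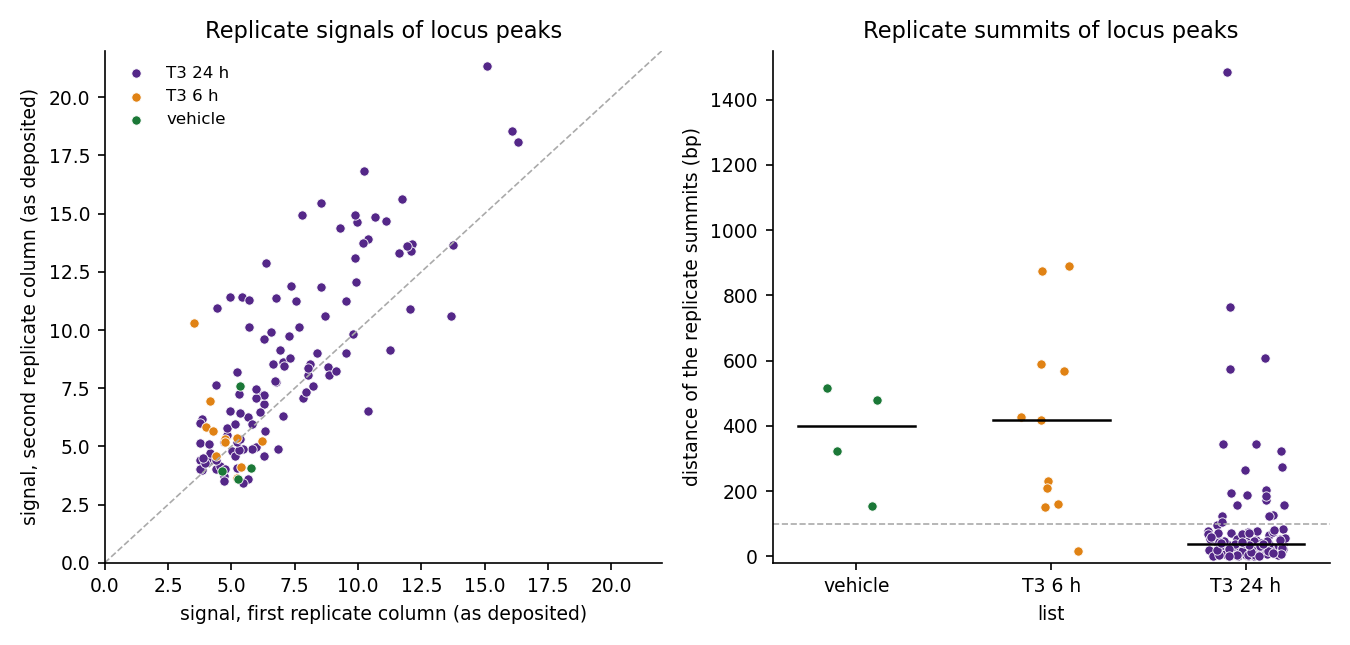
Left, deposited signals of the 2 samples for each locus peak, with the line of equality dashed. Right, distance in bp between the replicate summits by list, with medians as black lines and 100 bp dashed. The 24 h medians lie at 37 bp, against 401 bp in vehicle and 418 bp at 6 h.

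Replicate values of the locus peaks are given beside those of their lists. At 24 h, 92 of 112 peaks (82.1%) had summits within 100 bp, against 70.5% of the whole list, and the second signal column was the higher in 80 (71.4%, against 64.7%). The 2 columns had a Spearman correlation of 0.80 over these 112 peaks, which share libraries and were selected on both columns. At 6 h 1 of 11 peaks, that of TEAD3, had summits within 100 bp (29.4% of the whole list), and in vehicle 0 of 4 did (38.3%). The second column was the higher in 8 of 11 at 6 h (72.7%, against 65% of the list) and in 1 of 4 in vehicle (25%, against 59.4%). Over the 11 peaks at 6 h the 2 columns had a Spearman correlation of -0.71, against -0.28 for the list. These peaks, and the whole list, were likewise selected on both columns, so the correlations are not those of unselected regions. The median summit distance of the locus peaks was 401 bp in vehicle, 418 bp at 6 h and 37 bp at 24 h. These medians cover largely different peaks, so they do not compare the same regions.

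The comparison of each T3 time with vehicle asks which regions were in one list and not in the other. At 24 h hormone and time cannot be told apart. The lists also differ in length and replicate agreement, so listing alone does not show a change under hormone. All 11 member peaks at 6 h were absent from vehicle (80.8% of all 6 h peaks were absent and 19.2% shared). At 24 h 111 of 112 were absent from vehicle (96.0% of all 24 h peaks were absent and 4.05% shared), the exception being at TEAD4. Of the 4 vehicle peaks, 4 were absent at 6 h (66.8% of all vehicle peaks were absent and 33.2% shared) and 3 at 24 h (66.4% absent and 33.6% shared). The 6 h and 24 h lists had 7 of the 11 early peaks in common (63.6%, exact Clopper-Pearson 95% interval 30.79 to 89.07), against 49.3% of the whole 6 h list, and 4 were absent (50.7%). That interval covers counting error only and treats the 11 peaks as independent draws. They came from chosen genes, with several at the same locus, so it is no test against the list's share. These 7 made up 6.25% of the 112 late peaks (the whole 24 h list shared 10.2% with 6 h, and 89.8% of it was absent there). At 24 h the counterparts of those 7 peaks stood at percentiles 64.8 to 98.6. The percentiles of all 24 h peaks shared with 6 h were not computed, so this range cannot be called particular to these loci. Both T3 comparisons share the vehicle list.

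Gene-end peaks of other pathway genes and other known targets were most frequent at 24 h. That order of lists was also the one of all protein-coding genes, so it is no result about the pathway. Of 28 further pathway genes, 0 had a gene-end peak in vehicle (1.34% of all protein-coding genes), 3 at 6 h (10.8%) and 23 at 24 h (60.8%). At 6 h these were STK4, a kinase at the head of the cascade (signals 4.68 and 5.08), NF2, its membrane activator merlin (summed signal 9.62), and TAOK1, an upstream kinase (9.79). The strongest at 24 h were MOB1A, the LATS cofactor, at 33.6, NF2 at 32.2, WWC2 at 28.0 and AMOT, a paralogue of AMOTL2, at 26.02. Their replicate summits lay 474, 5, 251 and 1049 bp apart, in that order. The 5 without a gene-end peak at 24 h were STK3, RASSF1, DCHS1, VGLL1 and VGLL4. RASSF1 and VGLL4 had 24 h peaks on annotated start windows, VGLL4 on 2 of 5.

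Of 17 further target genes, 1 had a gene-end peak in vehicle (1.34% of all protein-coding genes), 3 at 6 h (10.8%) and 17 at 24 h (60.8%). TGFB2, a secreted growth factor, had one in all 3 lists. Its signals were 3.49 and 6.56 in vehicle, 4.05 and 7.48 at 6 h and 6.54 and 6.77 at 24 h. Signals are not compared between lists, and within them the summed signals stood at percentiles 51.4, 76.4 and 55.1. The summits lay 912, 370 and 677 bp apart, in that order. ANKRD1, a muscle-type ankyrin-repeat protein, and ARHGEF17, a guanine nucleotide exchange factor, were the others at 6 h, with summed signals of 9.40 and 11.5. ANKRD1 was the strongest of these genes at 24 h, at 35.0 (percentile 98.7) with both replicate summits at the same base. F3, tissue factor, FJX1 and GADD45A followed with 24.4, 19.5 and 17.7, and with summits 545, 217 and 44 bp apart. CRIM1, which lies in a peak-rich stretch, had 29 peaks within 100 kb at 24 h and a weak gene-end peak of 10.9. In lists of equal length 7 pathway genes and 2 target genes kept a gene-end peak at 24 h, where 16.6% of all genes did. With replicate summits within 100 bp, 10 of the 17 targets did, against 43.5% of all genes.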

How the data were processed

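The authors deposited 3 peak lists, 1 per group of 2 ATAC-seq samples. CASAVA 1.7, MACS2, Bowtie2, Trim Galore, DiffBind and the hg38 build are listed in the submitters' processing notes, with Tn5 shift and duplicate handling not given in the sources used here. From the values, the deposited signal is the sum of 2 replicate signals, whose normalisation is not stated. The deposited score is the scaled IDR, and the lists also hold the deposited −log10 of the IDR, at most 0.05 throughout. Replicate columns carry no sample names and were used as unnumbered replicates.

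Peak position was the mean of both replicate summits. Genes and promoter windows came from RefSeq GRCh38.p14, the assembly of hg38; exons were not analysed. The software was pandas 2.3.3, scipy 1.17.1, numpy 2.4.6 and matplotlib 3.10.9 under Python 3.11.15. The overlap code was tested on simulated data, and on the real lists it differed from bedtools 2.31.1 at 0 peaks.

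The members and gene lists were chosen with earlier results of these data known, so no test or p-value is given for them. By rule, all members were named. Of the other pathway and target genes, those open at a gene end in either earlier list were named. So were the 4 strongest at 24 h and those with none at 24 h. CRIM1 was named outside this rule. Alternatives changed the IDR limit, summit distance, list length, peak position, gene-end distance, window, assignment and overlap. A marker gene is not reported here.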

Additional observations from a re-analysis of the deposited data

How the results depend on the processing

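Of 213 recalculated counts, 147 stayed within 1.5 times the value reported and 66 did not, and no call on direction was made. For counts of single loci the numbers were 199 and 101 of 300. The peak midpoint, an overlap of 1 bp or of 50% of both peaks, gene ends within 500 bp, start windows in place of gene ends and leaving out peaks at ends of other genes moved no group count by more than 1.5 times; start windows, leaving out such peaks and cutting the 24 h list to the 6 h length were chosen after seeing the data.

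With an IDR of at most 0.01, vehicle kept 1 locus peak in 1 member, 0 of them inside a gene, and 0 targets with a gene-end peak. At 6 h 4 peaks in 4 members and 0 pathway genes were left; 4 of these 6 h peaks were absent from vehicle, and the 1 vehicle peak from both T3 lists. With replicate summits at most 100 bp apart, vehicle kept 0 locus peaks in 0 members and 0 targets, so 0 could be absent later. At 6 h 1 peak in 1 member (0 inside a gene) was left, absent from vehicle, with 1 pathway gene and 1 target. At 24 h 10 targets were left. Of all protein-coding genes, 0.461% in vehicle and 3.59% at 6 h had a gene-end peak under the IDR limit. Under the summit limit 0.320% in vehicle, 3.14% at 6 h and 43.5% at 24 h did.

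Lists of equal length by summed signal gave 7 locus peaks at 6 h, all 7 absent from vehicle, with 0 pathway genes. At 24 h they gave 18 peaks, 18 absent from vehicle, 2 members with a gene-end peak, 2 with one inside the gene, 7 pathway genes and 2 targets. Ranked by the first replicate column, 6 h had 6 peaks (6 absent from vehicle) in 5 members, and 24 h had 13 (13 absent), 1 member with a gene-end peak, 3 with one inside, 6 pathway genes and 1 target. Ranked by the second, 6 h had 6 peaks (6 absent) in 5 members with 0 pathway genes, and 24 h had 19 (19 absent), 1 member with a gene-end peak, 1 with one inside, 6 pathway genes and 2 targets. The 24 h list cut to 12385 peaks had 27 locus peaks, 27 absent from vehicle, 2 members with a gene-end peak, 5 with one inside, 9 pathway genes and 2 targets. These settings keep fewer peaks by construction.

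Gene ends within 2 kb gave 1 member at 6 h, TEAD2 (12.5% of all protein-coding genes). A window of 50 kb left 4 peaks at 6 h in 3 members, 4 absent from vehicle. Peaks nearest to an end of a member numbered 3 at 6 h in 2 members (3 absent from vehicle) and 57 at 24 h (57 absent). No paired analysis was possible because each group has 1 merged list whose replicate columns carry no numbers, and for the same reason no replicate could be left out. Depth is unknown.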

Other observations

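Ends of neighbouring genes (within 1 kb of either boundary) held 16 of the 112 member peaks at 24 h. The strongest of these overlapped a start window of TULP3 in the TEAD4 window (25.8, percentile 91.5). The next overlapped start windows of COMMD2 and RNF13 in the WWTR1 window (24.3 and 23.9) and of BIRC3 in the YAP1 window (24.0). SAP18, a subunit of histone deacetylase complexes, had a gene-end peak of 22.7 in the LATS2 window. The nearest gene end was that of the member for 57 of the 112, from 1 of 8 at TEAD2 and at TEAD3 to 10 of 13 at LATS2.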
